A study of Homo sapiens with 4 samples.

Results

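Open chromatin around MYC and PVT1 was described from the ATAC-seq peaks of chromosome 8 between 126.5 Mb and 129.5 Mb (hg38), a window that reaches 1235 kb upstream and 1765 kb downstream of the MYC transcription start site (TSS). Members were taken by position alone. The window held 132 peaks with Dox and 131 peaks without it, which merged into 184 union regions of the 149858 in the genome. MCF10A cells, a non-transformed human mammary epithelial line, carried a tet-inducible TAZ-4SA, a constitutively active form of the Hippo pathway co-activator TAZ. Cells without doxycycline (No Dox) were set beside cells given 0.05 µg/mL doxycycline for 72 h (Dox), and both groups carried the TAZ-4SA construct. The treatment text of all 4 samples names this dose, and the No Dox samples were taken as untreated from their titles and treatment labels. Each condition had 2 biological replicates of 50000 cells per transposition reaction. The authors pooled these replicates before peak calling, so each condition is represented by 1 peak list.

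MYC encodes a helix-loop-helix transcription factor that drives growth and cell cycle genes, and PVT1 is a long non-coding RNA gene that starts downstream of it on the same strand. The DNA on both sides is poor in coding genes. In many tissues MYC is controlled by enhancers that lie far from its promoter in this DNA, and different cell types use different ones. TAZ has no DNA-binding domain and reaches DNA through TEAD factors, often at enhancers that also hold sites for AP-1, the dimer of FOS and JUN proteins. The window holds 3 coding genes, MYC, LRATD2 and POU5F1B, and 19 genes of long non-coding RNA, among them PVT1, PCAT1, CASC8, CASC19, CCAT2, CASC11 and CCDC26. No sequence is printed for the regions, and positions are given in hg38.

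Every value is the authors' value for a pooled list. Fold stands for the fold enrichment of a peak at its summit over the background of its own list, and its percentile is its rank among all peaks of that list. The lowest fold in the window was 2.71 in the Dox list and 2.54 in the No Dox list. With 1 list per condition, replicate error could not be estimated and no test was made, and the lists carry no read counts. The study's methods give only an average read number over libraries, so the depth behind each list is not known. Intervals given in brackets are exact 95% Clopper-Pearson intervals, which cover counting error only and treat neighbouring regions as independent.

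The window held about as many peaks with Dox as without it, although the Dox list was the shorter by far. The Dox list held 84353 peaks in all and the No Dox list 117740, so that 0.156% of the first and 0.111% of the second lay here. Of the 184 regions, 54 (29.3%, 22.9 to 36.5) had peaks of the Dox list alone and 58 (31.5%, 24.9 to 38.8) of the No Dox list alone, and the remaining 72 (39.1%, 32.0 to 46.6) were shared. The first class took 22.3% of all regions of the genome and the second 45.3%. Dox-only regions made up 48.2% (38.7 to 57.9) of the condition-only regions of the window, against 33% (32.7 to 33.3) genome-wide.

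The balance was another among strong peaks. A region was called strong where 1 of its peaks reached the median fold of the list it came from, 4.07 for Dox and 3.81 for No Dox. Of 112 strong regions, 13 (11.6%) were Dox-only, with 13.5% in the genome. No-Dox-only were 28 (25%), with 27.4% in the genome. The Dox-only share of condition-only regions was then 31.7% (18.1 to 48.1), close to the 33.1% of the genome. Of 37 regions with a fold of 8 or more, 3 (8.11%) were Dox-only and 2 (5.41%) No-Dox-only, with 4.17% and 4.03% in the genome. At that fold the Dox-only share was 60% (14.7 to 94.7), beside 50.8% genome-wide. In the Dox-only class of the window the median fold was 3.39 and 24.1% of regions were strong, near the 29.5% of that class genome-wide. In the No-Dox-only class the median fold was 3.6 and 48.3% were strong, against 29.5% genome-wide. Shared regions had a median fold of 7.10, and 98.6% of them were strong, against 88.6% genome-wide. When the longer list was cut at its weakest q-values until both lists were equally long, 58 regions of the window were Dox-only and 38 No-Dox-only. The Dox-only share was then 60.4% (49.9 to 70.3), beside 49.1% genome-wide.

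**Figure D1:**
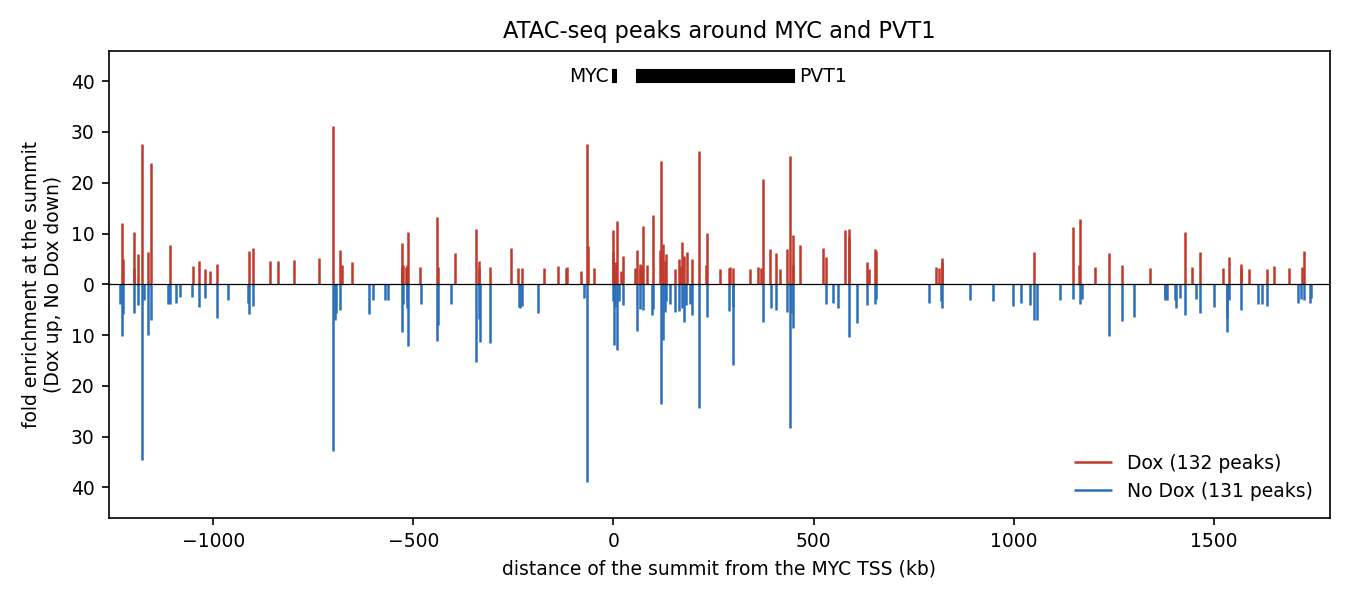
Fold enrichment at the summit (y axis) of each Dox peak (upward, red) and No Dox peak (downward, blue) by distance of the summit from the MYC TSS in kb (x axis), with MYC and PVT1 as black bars. The 5 shared regions of highest fold stand at -1177, -699.6, -66.5, 214.4 and 441.4 kb in both lists, and the No Dox peak of fold 15.9 at 299.8 kb has no Dox counterpart.

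The MYC promoter lay under peaks in both conditions. MYC is on the plus strand from 127735434 to 127742951, and its TSS is taken as the first of 15 GENCODE transcript starts. Without Dox, 1 peak from 127733864 to 127736517 covered the promoter at a fold of 11.9, the 94.1th percentile of its list. With Dox, the same stretch held a peak from 127734063 to 127734575 at a fold of 6.33 and a second from 127735037 to 127736477 at 10.6, the 91.3th percentile. The No Dox peak was the wider at 2654 bp, against 1441 bp for the stronger Dox peak. Its summit was 0.71 kb downstream of the TSS, and the summit of the stronger Dox peak was at -0.078 kb. Peaks covered 10 of the 15 MYC transcript starts with Dox and 11 without.

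Within the MYC gene, the shared region of highest fold had near-equal percentiles in both lists, and the weaker shared ones had not. Percentiles move far at low folds and little near the top of a list. In the Dox list a fold of 3.16 is the 14.0th percentile and one of 3.39 the 24.0th. The region from 127741832 to 127743691 at the 3′ end of MYC reached a fold of 12.4 with Dox and 12.9 without, slightly more than the promoter in each list. A region from 127737731 to 127738742 had folds of 4.29 with Dox and 3.39 without, percentiles of 52.7 and 36.7. A region from 127739552 to 127740033, which held a TEAD motif, had 3.16 and 4.45, percentiles of 14.0 and 65.5. The gene also held the Dox-only region from 127736968 to 127737399, with a fold of 3.62. The nearest No-Dox-only regions lay upstream from 127732762 to 127733355 and downstream from 127748620 to 127748898, each at a fold of 3.39. None of the condition-only regions within 10 kb of the gene was strong. Between MYC and PVT1, the only shared region lay 24.9 kb from the TSS with folds of 5.65 and 4.02, beside 2 Dox-only regions of fold 2.71 and 3.16.

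**Figure D2:**
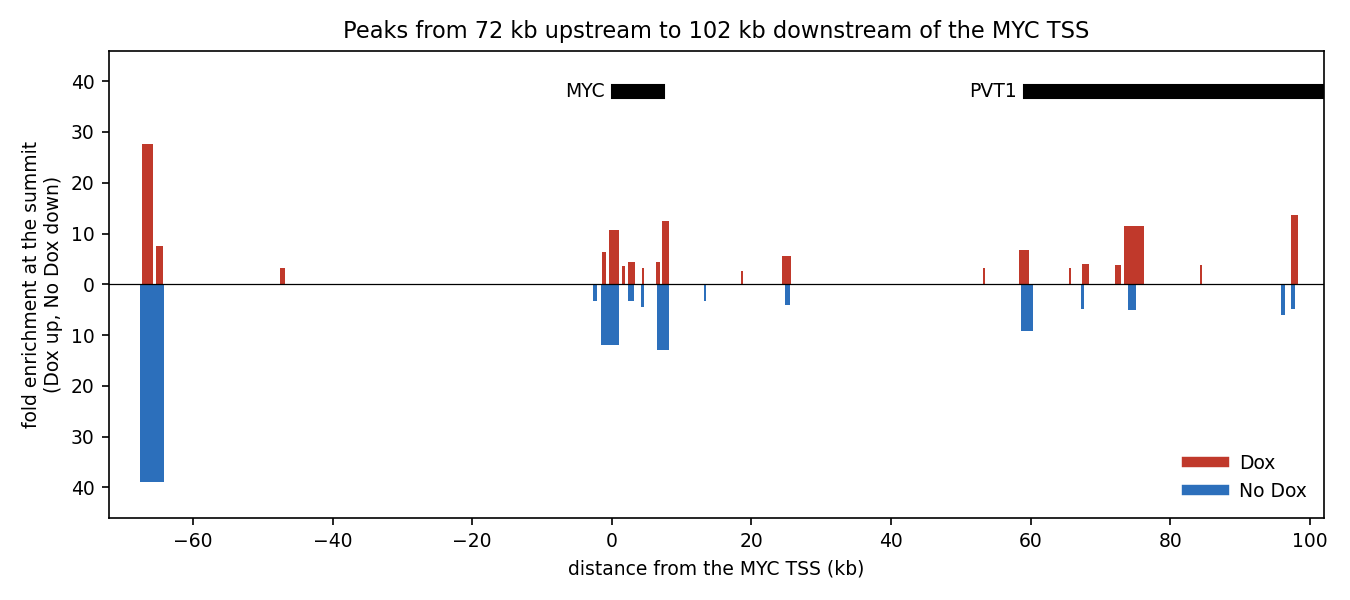
Peaks drawn to scale around MYC and the start of PVT1 by distance from the MYC TSS (x axis, kb), with box height as fold enrichment at the summit, Dox upward in red and No Dox downward in blue, and genes as black bars. The region at -66.5 kb is 3523 bp wide and higher than the MYC promoter in both lists, and the MYC promoter and 3′ end have similar folds in both.

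The highest folds of the window did not lie at the MYC promoter in either list. Without Dox the highest was at -66.5 kb from the TSS, and with Dox it was in PCAT1 at -699.6 kb. The region at -66.5 kb extended from 127667792 to 127671314 and covered a start of the long non-coding RNA gene ENSG00000286010. Its fold was 39.0 without Dox and 27.6 with it, the 99.8th and 99.5th percentiles. Without Dox it was 1 peak, and with Dox it was 2, the second at a fold of 7.46. The other shared regions of highest fold were likewise near the top of both lists. The promoter of LRATD2 (126555236 to 126559120) had a fold of 34.5 without Dox and 27.6 with it. An intronic region of PCAT1 from 127034898 to 127036514, 21.7 kb from the nearest TSS of any gene, had 32.8 and 31.2. Inside PVT1, the region from 128176125 to 128177974 had 28.4 without Dox and 25.3 with it, and that from 127948710 to 127950479, at the start of LINC02912, a non-coding RNA gene on the opposite strand, had 24.4 and 26.2. All 5 lay at the 99.06th percentile or higher in both lists, where percentiles have little room to differ. Theirs differed by at most 0.382 points between the lists.

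Regions were closely spaced in PVT1. The gene extends over 392.6 kb from 127794526 to 128187101 and held 42 regions, or 107 per Mb, against 55.5 per Mb upstream of MYC, 254 per Mb within 10 kb of MYC, 72.2 per Mb between the genes and 48.7 per Mb downstream of PVT1. By distance alone, 133 per Mb lay 10 to 100 kb downstream of the MYC TSS and 87.5 per Mb 100 to 500 kb downstream. Of these 42, 13 (31%, 17.6 to 47.1) were Dox-only and 6 (14.3%, 5.43 to 28.5) No-Dox-only, and 23 were shared. Genome-wide the Dox-only class took 22.3% and the No-Dox-only class 45.3% of regions. Among strong regions PVT1 held 1 Dox-only and 6 No-Dox-only. That is the order of the genome, where 13.5% and 27.4% of strong regions fell in these classes. The first PVT1 TSS, 59.1 kb from that of MYC, lay under a peak of fold 9.11 without Dox (127794014 to 127795839) and 6.78 with it (127793772 to 127795249). Of the 190 annotated PVT1 transcript starts, 76 lay under a Dox peak and 101 under a No Dox peak, while those within 1 kb of a peak were 112 and 111.

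The most pronounced No-Dox-only region of the window was an intronic element of PVT1. It extended from 128034791 to 128035613, 299.8 kb from the MYC TSS, had a fold of 15.9, the 96.9th percentile of the No Dox list, and held an AP-1 motif. Only 8 of the 67861 No-Dox-only regions of the genome had a higher fold. The Dox list had no peak under it, and the nearest Dox peak lay from 128034038 to 128034320 at a fold of 3.16. That weak Dox peak stood between the strong No-Dox-only region and another one, from 128032883 to 128034024, at a fold of 4.45. The Dox peak began just past the end of this other region, so merging peaks within 200 bp turns that pair into a shared region. Further along the gene, the strongest Dox-only region of PVT1 extended from 128182877 to 128183613 with a fold of 9.72 and an AP-1 motif. It was followed within 1 kb by a shared region (128184411 to 128185157) whose fold was 3.84 with Dox and 8.69 without it.

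Several shared regions of PVT1 had a higher fold with Dox, and others had a lower one. Of its 23 shared regions, 12 ranked higher with Dox, and the median difference was 0.285 points. The percentile was over 20 points higher with Dox in 2 of them and over 20 points lower in 4. The regions named here were chosen after their values were seen. The region from 128108609 to 128109474, in an intron and with an AP-1 motif, had a fold of 20.8 with Dox and 7.41 without. That from 127832737 to 127833774, with a TEAD motif, had 13.6 and 4.87, and that from 127808798 to 127811638 had 11.5 and 5.08. In the other direction, the region from 127889697 to 127890425 had 2.94 with Dox and 5.51 without it, percentiles of 5.54 and 76.6.

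Upstream of MYC, 27 of 68 regions were shared. Those found with Dox alone were 21 (30.9%, 20.2 to 43.3) and those without it alone 20 (29.4%, 19.0 to 41.7). In the genome these classes took 22.3% and 45.3% of regions. Of the strong regions upstream, 7 were Dox-only and 10 No-Dox-only, and in the genome 13.5% and 27.4% of strong regions fell in these classes. PCAT1, a long non-coding RNA gene of 862.7 kb, overlapped 47 of the regions in the window. The strongest Dox-only region here lay from 127478549 to 127479144 near a start of CASC8, with a fold of 7.23, and was matched in fold by the region downstream of PVT1 from 128257206 to 128259050. The No-Dox-only region of highest fold lay from 127038513 to 127038963 with 6.99 and an AP-1 motif, just beyond the strong shared region in PCAT1. Over CASC8 and CCAT2 a run of shared regions had lower folds with Dox. The region at CCAT2 (127400610 to 127402391) had a fold of 3.16 with Dox and 11.4 without, percentiles of 14.0 and 93.6. The region from 127426771 to 127427401 had 3.39 and 11.7, and the region from 127297096 to 127298049 had 3.39 and 8.05. The neighbours differed less or the other way: the region from 127391023 to 127391785 had 10.9 with Dox and 15.3 without it, and that from 127293652 to 127295983 had 13.3 and 11.2. At the far upstream end, the region from 126579696 to 126580767, with a TEAD motif, had 24.0 with Dox and 6.99 without, and that from 126628084 to 126629166, also with a TEAD motif, had 7.69 and 3.81.

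Downstream of PVT1, 30 of 64 regions (46.9%, 34.3 to 59.8) were No-Dox-only and 17 (26.6%, 16.3 to 39.1) Dox-only, shares near the 45.3% and 22.3% of the genome. Of these, 12 No-Dox-only and 5 Dox-only regions were strong. The Dox-only region of highest fold in the window lay here from 128314289 to 128315098, with a fold of 10.6 and a TEAD motif, and 213 of the 33440 Dox-only regions of the genome had a higher one. A Dox-only region of fold 9.27 lay next to it beyond a shared one, from 128324145 to 128325028. Nearer to PVT1, the Dox-only region from 128201691 to 128202156 had 7.69. The No-Dox-only region of highest fold on this side lay in CCDC26 from 129269199 to 129269793 with 9.32 and an AP-1 motif. It was followed by those from 128343702 to 128344239 with 7.63 and from 128794171 to 128794934 with 6.99. CCDC26, which reaches beyond the window, overlapped 25 No-Dox-only, 10 Dox-only and 10 shared regions.

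**Figure D3:**
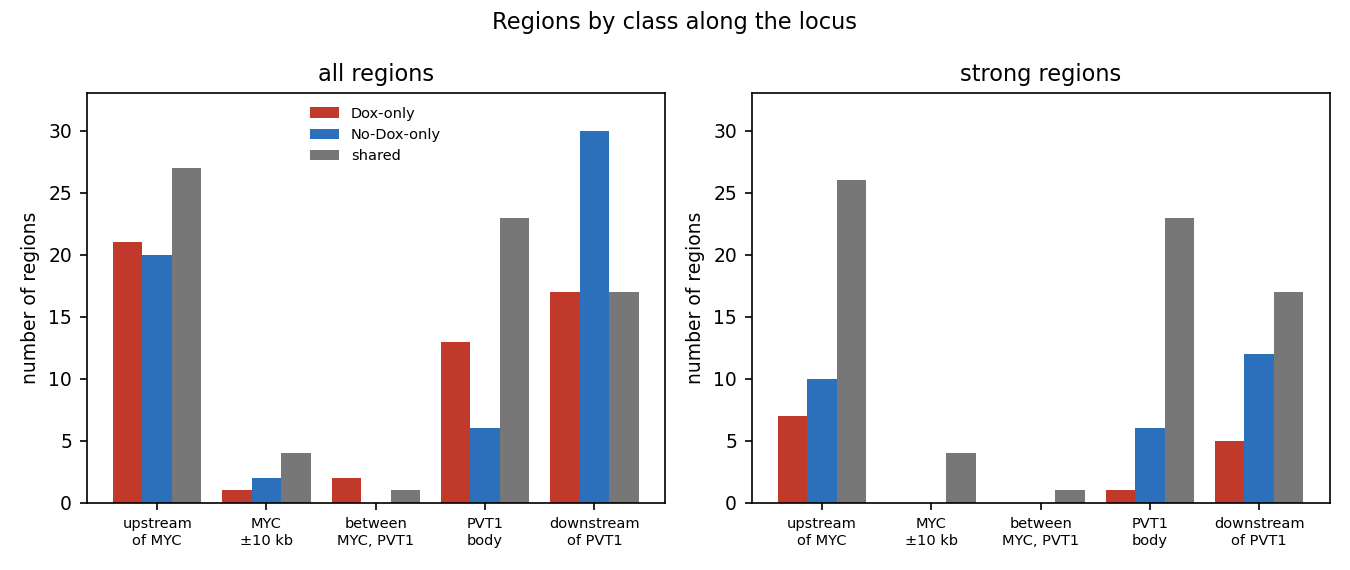
Number of regions (y axis) of each class, Dox-only in red, No-Dox-only in blue and shared in grey, for each stretch of the locus (x axis), with all regions on the left and strong regions on the right. PVT1 holds 13 Dox-only and 6 No-Dox-only regions in all but 1 and 6 among strong ones, and the stretch downstream of it holds 17 and 30. In the genome these classes take 22.3% and 45.3% of all regions and 13.5% and 27.4% of strong ones.

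Shared regions differed in rank in both directions. The percentile was over 20 points higher with Dox in 8 of 72 (11.1%) and over 20 points lower in 15 (20.8%), against 8.25% and 24% in the genome. The percentile with Dox was higher than that without it in 31 of 72 shared regions (43.1%), against 30.3% of 48557 in the genome, and the median difference was -0.788 points, with quartiles of -16.2 and 12.9. With lists of equal length these shares were 54.4% and 48.7%. The largest differences in favour of Dox were in CCDC26, from 128883059 to 128883862, with percentiles of 92.5 with Dox and 15.1 without (folds 11.3 and 2.97). They were followed by the region from 128390990 to 128391387 with 77.2 and 15.1 and the region from 129459561 to 129461019 with 77.2 and 26.2. The largest in favour of No Dox were the regions at CCAT2, at 127889697 in PVT1 and at 127426771 described above.

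Shared regions with a fold at least 2 times as high with Dox numbered 9 (12.5%, 5.88 to 22.4), and 2.80% of shared regions in the genome had such a ratio. In the other direction there were 4 (5.56%, 1.53 to 13.6), against 3.23%. Among shared regions over 3 kb from a TSS, 8 of 46 (17.4%, 7.82 to 31.4) had the ratio in favour of Dox, against 3.73% of 28193 such regions. This count was made after the values were seen, and the folds of the lists have slightly different backgrounds. The 9 regions were spread over the window: 2 lay upstream of MYC, 3 in PVT1 and 4 downstream of it.

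**Figure D4:**
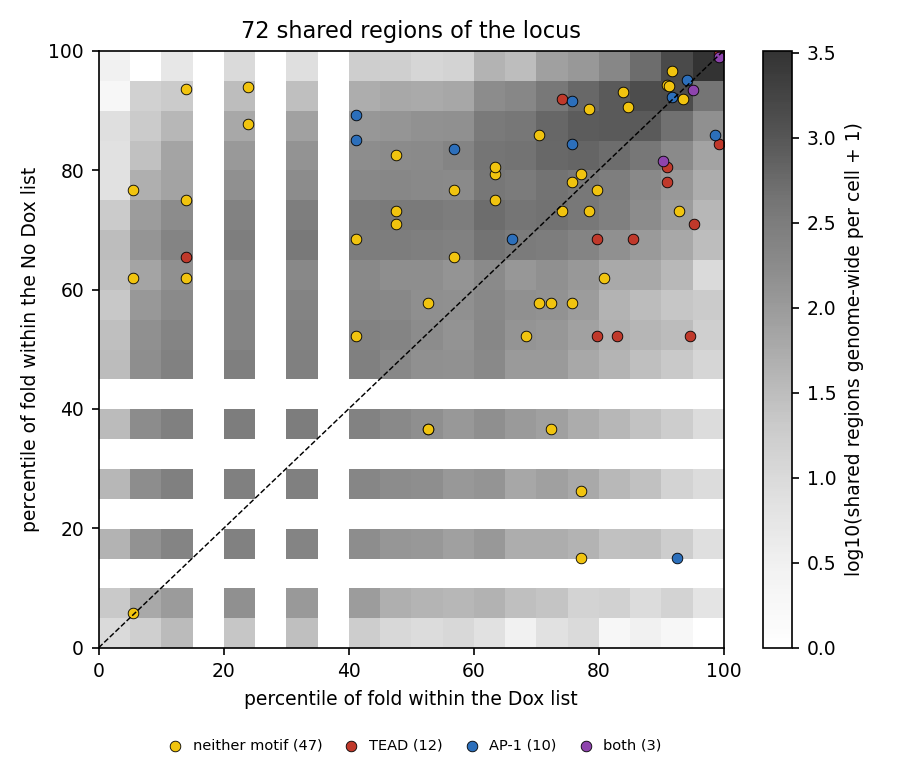
Percentile of fold within the Dox list (x axis) and the No Dox list (y axis) for the 72 shared regions of the locus (points, coloured by motif), over a grey scale of the count of shared regions genome-wide, with the dashed line where both are equal. White strips are percentiles that no peak takes because folds move in steps. Regions with a TEAD motif alone lie mostly on the Dox side of the line (9 of 12), and those with an AP-1 motif alone on the other (8 of 10). Motifs were sought at the summit of the higher-ranked peak.

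The TEAD motif was found more often in the Dox-only class than in the No-Dox-only class, in the window as in the genome. The TEAD motif (ACATTCC or GCATTCC) was found within 100 bp of the summit, on either strand, in 11 of 54 Dox-only regions (20.4%, 10.6 to 33.5). Of the 58 No-Dox-only regions 1 held it (1.72%, 0.0436 to 9.24). Shared regions held it in 15 of 72 cases (20.8%, 12.2 to 32.0). Its share in the genome was 13.6% for the Dox-only class, 5.72% for the No-Dox-only class and 9.84% for the shared class. The AP-1 motif (TGACTCA or TGAGTCA) was in 7 Dox-only regions (13%, 5.37 to 24.9), in 15 No-Dox-only regions (25.9%, 15.3 to 39.0) and in 13 shared regions (18.1%, 9.98 to 28.9). Genome-wide it was in 8.12%, 11.7% and 18.5%. The intervals of both condition-only classes did not overlap for TEAD and overlapped for AP-1, and the TEAD intervals of both contain the shares of the genome. The TEAD interval of the shared class lies above its genome share of 9.84%. The AP-1 interval of the No-Dox-only class lies above 11.7%, and those of the other classes contain their genome shares. No condition-only region held both motifs, and 3 shared regions did.

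TEAD was likewise more frequent in Dox-only regions away from promoters. Over 3 kb from any TSS, TEAD was in 11 of 40 Dox-only regions (27.5%, 14.6 to 43.9), with 15.3% in the genome. It was there in 1 of 50 regions found without Dox alone (2%, 0.0506 to 10.6), with 5.79% in the genome. The Dox-only regions with TEAD numbered 4 of 21 upstream of MYC, 3 of 13 in PVT1 and 4 of 17 downstream, and the single No-Dox-only one lay downstream. Among strong regions, 12 of 28 No-Dox-only regions (42.9%, 24.5 to 62.8) held AP-1 and 22.4% did in the genome, while 2 of 13 Dox-only regions did. Among shared regions the percentile was higher with Dox in 9 of 12 with TEAD alone (median difference 13.9 points), in 2 of 10 with AP-1 alone (median -5.48) and in 17 of 47 with neither (median -3.45). Those 2 with AP-1 alone were the region at 128108609, with folds of 20.8 and 7.41, and the region at 128883059, with a difference of 77.4 points. In the genome these were 54.0% of 3754 (1.15 points), 23.6% of 7951 (-9.35 points) and 28.8% of 35827 (-5.03 points). The motif of a shared region was sought at the summit of its higher-ranked peak. The motif call is therefore not independent of the rank difference set beside it.

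The RUNX motif (TGTGGT) was in 17 shared regions, 11 regions with Dox alone and 13 without it alone, 22.3% (16.5 to 29.0) of all regions of the window and 15.2% of those in the genome. The TCF/LEF motif (CTTTGAA or CTTTGAT), that of the Wnt pathway factors known to act on MYC enhancers, was in 5, 2 and 8 regions, or 8.15% (4.63 to 13.1) of the window and 5.91% of the genome. The STAT motif (TTCNNNGAA) was in 4, 3 and 3 regions, or 5.43% of the window and 5.91% of the genome. The CTCF motif was in 2 regions, both shared, or 1.09% of the window and 1.21% of the genome. The E-box bound by MYC itself (CACGTG) was in 1 region (0.543%, 0.0138 to 2.99), with 3.27% in the genome. The TEAD letters in reversed order (CCTTACA or CCTTACG), taken as a control, were in 6 regions in all (3.26%, 1.21 to 6.96), with 2.19% in the genome. All motifs were sought on both strands. The letters of TEAD and AP-1 can overlap by 1 base and those of TEAD and RUNX by 3, and a match describes the letters and is not a binding site.

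**Figure D5:**
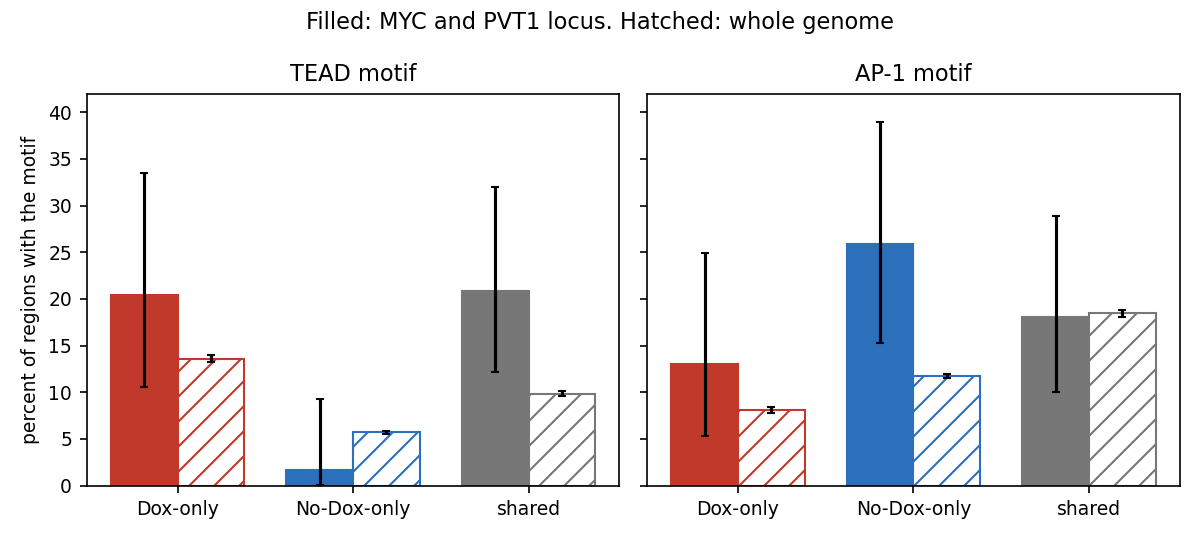
Percent of regions with the TEAD motif (left) and the AP-1 motif (right) within 100 bp of the summit (y axis) for each class of region (x axis), for the locus (filled bars) and the whole genome (hatched bars), with exact 95% intervals as error bars. In the locus TEAD is in 20.4% of the Dox-only class, against 1.72% of the No-Dox-only class.

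The regions were unevenly spaced. The 3 longest stretches with no peak in either list all lay far from MYC. They measured 133.1 kb (128391388 to 128524438) and 68.7 kb (128557357 to 128626098), both over parts of LINC00824, and 61.7 kb (126937043 to 126998723) within PCAT1. When peaks no more than 12.5 kb apart were joined, the group that holds MYC had the most peaks with Dox and tied for the most without it. It had 9 peaks over 27 kb with Dox (127734063 to 127761059) and 7 peaks over 28.2 kb without (127732762 to 127760982). These peaks covered 6.57 kb with Dox and 7.37 kb without. The regions at the promoter and the 3′ end of MYC each held 2 Dox peaks and 1 No Dox peak. A group in PVT1 of 42.5 kb had 7 peaks in each list, and a group in CASC19, at -530 to -512 kb from the MYC TSS, had 7 peaks with Dox and 5 without it.

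Peaks covered 92.0 kb with Dox and 98.8 kb without, and 54.2 kb were covered in both, or 59.0% of the Dox and 54.9% of the No Dox length. Of the Dox peaks of the window 59.1% (50.2 to 67.6) lay in shared regions, as did 60.3% in the genome. Of the No Dox peaks 55.7% (46.8 to 64.4) did, against 42.3% in the genome. Shared regions were wider, with a median of 983 bp against 363 bp for the Dox-only class and 405 bp for the No-Dox-only class. Median GC content around the summit was 46% in the Dox-only class of the window, against 51.2% in that class genome-wide. It was 44.5% in the No-Dox-only class, against 45.3% genome-wide. Of the 184 regions, 105 lay in introns, 48 within 3 kb of a TSS of any transcript, 23 in intergenic DNA and 8 in exons.

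Promoters of the MYC network were set beside those of all 19962 protein-coding genes, of which 65.3% had a peak in both lists. Of 13 genes of MYC, its dimer partner MAX, their competitors and relatives, 10 had in both lists a peak no more than 1 kb from a TSS. MAX had a fold of 17.4 with Dox and 15.0 without, MXD1, a MAX partner that represses MYC targets, 20.1 and 18.9, and MXI1, of the same kind, 17.2 and 21.0. MLX had such a peak with Dox alone (4.07) and MYCN without Dox alone (3.81), and MLXIPL had none. Of 15 genes known as MYC targets, 14 had a promoter peak in both lists and TERT, the catalytic subunit of telomerase, with Dox alone at a fold of 3.62. SHMT2, a mitochondrial enzyme of serine metabolism, had 6.78 with Dox and 3.18 without, and FBL, a nucleolar methyltransferase, had 3.39 and 6.57.

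The label of the cells was checked against promoter peaks. All 4 epithelial markers (CDH1, EPCAM, KRT8 and KRT18) and 6 of 8 basal markers had a peak in both lists, while TP63 had one with Dox alone and KRT14 had none. None of 3 endothelial markers had one, and of 4 immune markers PTPRC had one without Dox alone and CD79A with Dox alone. Of 3 fibroblast markers COL1A1 and PDGFRB had one in both lists and DCN without Dox alone, and of 2 luminal markers ESR1 had one in both and PGR without Dox alone. Of all protein-coding genes 65.3% had a peak in both lists, near the shares of the basal and fibroblast lists. These promoter peaks therefore do not tell basal from fibroblast cells. Against 966 stretches of 3 Mb with at least 1 region, the window held more regions than 781. Within its own part of chromosome 8, from 102500001 to 144500000, it held the fewest. The window had 184 regions there, and each of the other stretches had 235 to 1020. The Dox-only share of the window was higher than that of 656 of the 889 stretches with at least 30 condition-only regions. Neighbouring stretches differed from it widely: the next upstream had 269 regions and a Dox-only share of 72.2%, and the next downstream had 427 and 20.5%. The part of these larger stretches in the values of the window was not tested. At the bounds of the window, the first and last regions inside had folds of 3.81 and 2.75, and the nearest ones outside lay 11.3 kb before and 10.4 kb after it.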

How the data were processed

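ATAC-seq was performed in MCF10A cells with inducible TAZ-4SA, 2 biological replicates per condition. Per the paper's methods, the authors mapped paired-end reads with BWA to the human genome hg38 and ran MACS2 at a cutoff of 0.05 on the false discovery rate, with both replicates of a condition combined; tool versions and the handling of Tn5 offsets and duplicates are not given in the sources used here. The deposited fold of each peak is its ratio of signal to background at the summit, and the deposited −log10 of the q-value comes from the peak caller. Folds moved in steps of 0.226 (Dox) and 0.212 (No Dox), so conditions were compared by rank within a list. The GENCODE release was 44, in hg38 coordinates.

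Union regions joined peaks of both lists that shared 1 bp or more or were adjacent, on the autosomes and X, with Python 3.11.15, numpy 2.4.6, pandas 2.3.3 and scipy 1.17.1. This step gave the right class to all regions in simulated data of well separated regions with at most 1 peak per list. That simulation held no split or nearly touching peaks, so it does not cover them. Sequence was read with pysam 0.24.0 and samtools 1.23.1, and figures were drawn with matplotlib 3.10.9. Motifs were sought within 100 bp of the summit of the region's highest-ranked peak. Named were the regions within 10 kb of the MYC TSS and at the PVT1 TSS, the 5 of highest fold per class, the 3 largest rank differences each way and the 3 longest stretches without a peak. Other regions, including those with a fold ratio of at least 2, were chosen after their values were seen. The locus, lists and motifs were chosen with earlier results of these data known. No p-value was computed, since the replicates were pooled.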

Additional observations from a re-analysis of the deposited data

How the results depend on the processing

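The counts of the window were computed again at stricter q-values, with lists of equal length, with other definitions of overlap and within 1 Mb of the MYC TSS. At a q-value of 1e-05, 23 regions were Dox-only and 31 No-Dox-only, at 34.3 regions per Mb. Among strong regions these were 13 and 28, at 37.3 per Mb, with a Dox-only share of 31.7%. With lists of equal length 38 regions were No-Dox-only and the share was 60.4%. Within 1 Mb of the TSS 29 were No-Dox-only and the share was 58.6%. The cause of the difference between these shares was not tested. A q-value of 0.01, merging within 200 bp, an overlap of 50% and summits within 500 bp left every count of regions within 1.5 times its reported value. The number of shared regions ranked higher with Dox was 31 of 72 as reported. It was 22 of 52 within 1 Mb of the TSS, 28 of 49 at a q-value of 1e-05 and 37 of 68 with lists of equal length. With folds in place of ranks, an alternative chosen after seeing the data, it was 38 of 72. The TEAD motif was in 12 regions within 50 bp of the summit and in 46 over the whole peak, and AP-1 in 20 and 55. By class, TEAD was in 6 Dox-only and 0 No-Dox-only regions within 50 bp and in 13 and 3 over the whole peak. No paired analysis was possible because the authors pooled the replicates, and leaving out a replicate was not run for the same reason. The lists carry no read counts, so a region with a peak in 1 list may lie just below the threshold of the other.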
